A study of Mus musculus with 8 samples.

Results

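The cathepsin genes are described here in RNA from the dental pulp (DP) of mouse first molars at postnatal day 7 (P7). The group is made up of 10 genes of the 12148 analysed: *Ctse*, *Ctsa*, *Ctsb*, *Ctsc*, *Ctsd*, *Ctsf*, *Ctsk*, *Ctsl*, *Ctss* and *Ctsz*. All 10 were found by their Ensembl identifiers and matched to mouse symbols. *Ctse* was chosen by its fold change between the genotypes in these same libraries, a strong fall in the mutant, so its values are given as a description and carry no test. The other 9 were taken as cathepsin family members.

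The 8 libraries came from C57BL/6J mice. The 4 control libraries, numbered 49 to 52, carry Osterix-Cre, and the 4 mutant libraries, numbered 53 to 56, carry Osterix-Cre with floxed *Tgfbr2* (Osterix-Cre:Tgfbr2f/f, called Tgfbr2cko). *Tgfbr2* encodes the TGFβ type II receptor. Cre is therefore present in both genotypes, and it is driven by the Osterix promoter, which is active in DP mesenchyme and odontoblasts and is not meant to delete the receptor in macrophages, vessels, nerves or epithelium. Pulp was freed from the mineralized tissue and the enamel organ, the left and right molars were combined, and the RNA was amplified from a low input before sequencing. The study asked which transcripts in the DP depend on *Tgfbr2* while the tooth mineralizes and is innervated.

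Cathepsins are proteases that work mainly in the acidic interior of endosomes and lysosomes, where they break down proteins that were taken up or delivered for turnover. They are made as inactive precursors and fall into catalytic classes named after the residue that attacks the peptide bond: aspartic (*Ctsd*, *Ctse*), serine (*Ctsa*) and cysteine (*Ctsb*, *Ctsc*, *Ctsf*, *Ctsk*, *Ctsl*, *Ctss*, *Ctsz*). Some have restricted duties: cathepsin K digests bone collagen in osteoclasts, cathepsin S trims the invariant chain of MHC class II in antigen-presenting cells, and cathepsin C activates the serine proteases of granulocytes and mast cells.

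The catalytic classes can be read in the transcripts themselves. The coding stretches below, read by coordinates from the GRCm38 genome with GENCODE M21 annotation, show the codon of the catalytic residue in capitals for both aspartic members, for the serine member, and for the cysteine members that were altered between the genotypes. *Ctse* and *Ctsd* each hold a pair of such aspartate codons.
Ctse chr1:131663359-131663388 (+ strand), exon 4 of 10: actgtcatctttGACaccggttcatccaac
Ctse chr1:131672247-131672276 (+ strand), exon 8 of 10: caggccatagtgGACacagggacctctctc
Ctsd chr7:142383464-142383493 (- strand), exon 3 of 9: acagtcgtctttGATactggctcctctaac
Ctsd chr7:142377098-142377127 (- strand), exon 7 of 9: gaggctattgtgGACacagggacatctctt
Ctsa chr2:164835231-164835260 (+ strand), exon 7 of 16: ctgacaggagagAGCtatgctggcatctac
Ctss chr3:95545336-95545365 (+ strand), exon 5 of 8: tcttgtggtgccTGCtgggctttcagtgct
Ctsc chr7:88308015-88308044 (+ strand), exon 6 of 7: tcttgtggaagcTGCtactcatttgcctct

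Between 9511517 and 10227345 reads were counted per control library and between 8682872 and 13539670 per mutant library, so that 1 read was worth 0.0739 to 0.115 CPM (counts scaled to the same total in each library). All levels below are log2 CPM unless stated otherwise. *Tgfbr2* itself was at 7.16, 7.62, 7.64 and 7.52 in libraries 49 to 52 and at 7.02, 7.00, 7.16 and 7.61 in libraries 53 to 56, so the libraries labelled Tgfbr2cko 55 and 56 lay inside the control range, 55 at its lower edge, and the receptor transcript did not separate the genotypes (log2 fold change -0.29, limma adjusted p = 0.790). Counts are per gene, so the deleted piece of the receptor transcript was not read on its own. Transcripts of the enamel matrix (*Amelx*, *Ambn*, *Enam*) are made mainly in the enamel organ. They took 19.2% of the reads of library 56 and between 0.334% and 2.87% in the other 7. Where leaving out library 56 changed a call on a gene named below, the value without it is given. *Dspp*, the odontoblast marker, was at 12.50 to 14.02 in control libraries and at 11.99 to 13.22 in mutant libraries. The sample titles carry 3 different numbers among the 4 control libraries and 2 among the 4 mutant libraries. What these numbers mark is not stated, and whether libraries that share one come from the same litter or animal is not known, so p-values measure only the spread between these libraries, taken as 4 separate samples in each genotype.

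*Ctse* encodes cathepsin E, an aspartic protease best known from gastric mucosa and cells of the immune system. It lies at chr1:131638306-131675505 on the plus strand (GRCm38) and was lower in every mutant library than in every control library. Its level was 5.06, 4.65, 5.07 and 6.00 in control libraries 49 to 52 and 2.64, 3.23, 2.89 and 1.26 in mutant libraries 53 to 56. The highest mutant value lay 1.42 log2 units under the lowest control value.

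In reads, *Ctse* was counted 326, 242, 319 and 652 times in control libraries and 55, 115, 64 and 32 times in mutant libraries. The mean CPM was 38.9 in control libraries and 6.32 in mutant libraries. On the log2 scale the means were 5.19 ± 0.57 and 2.51 ± 0.86 (SD, n = 4 each), a difference of -2.68, which is 6.43-fold lower. Library 56 held the lowest value, and without it the difference was -2.27.

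*Ctse* was a transcript of middle abundance in control pulp, ranked 5494 from the top of the 12148 genes by mean level, and it ranked 10914 in mutant libraries. Only 2 genes had a larger fall: *Cib3*, named here after its values were seen, at -3.06, and *Klk4*, a protease of enamel maturation, at -2.71. None of the 2126 31-base words of the protein-coding *Ctse* transcripts occurs in another annotated gene, and no other gene overlaps the *Ctse* exons. Exon bases outside those transcripts (3170 in all, 2126 in protein-coding transcripts) were not searched. Because the gene was chosen for this fall, its size and its rank are descriptions.

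**Figure D1:**
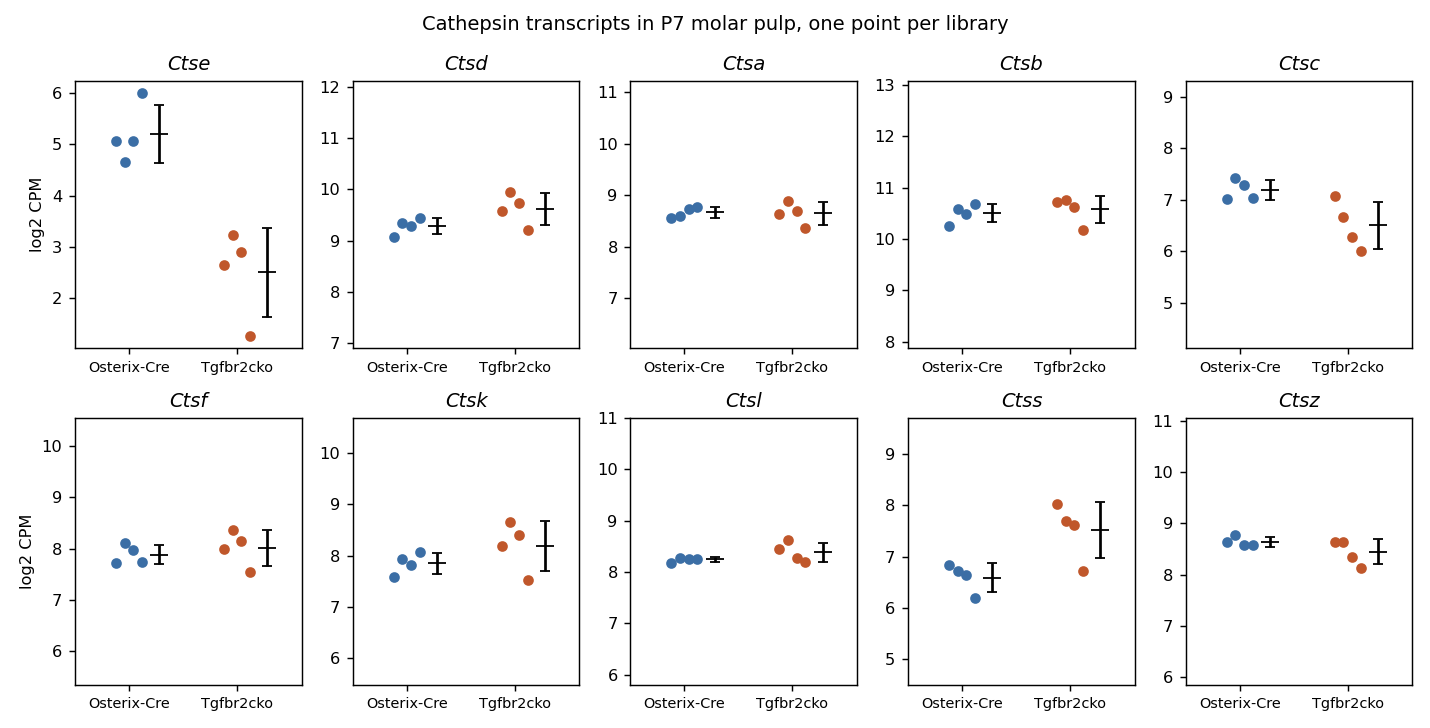
Level of each cathepsin transcript (log2 CPM) in the 4 Osterix-Cre and 4 Tgfbr2cko libraries, 1 point per library in the order 49 to 52 and 53 to 56, with the mean and SD beside the points. Every panel spans the same number of log2 units. The *Ctse* points are apart by 1.42, while the points of the other 9 genes overlap.

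*Ctsd*, at chr7:142375911-142388038 on the minus strand, encodes cathepsin D, the major aspartic protease of lysosomes and the other aspartic member. Its level was 9.08, 9.35, 9.29 and 9.44 in control libraries and 9.57, 9.94, 9.73 and 9.20 in mutant libraries. Mutant libraries 53 to 55 were above every control, and library 56 was below 3 of the 4. The difference was 0.32 ± 0.19 (SE, 95% interval -0.08 to 0.72, limma adjusted p = 0.764), and it was not called. Without library 56 the difference was 0.46 (limma adjusted p = 0.283), under 1.5-fold.

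The level of *Ctse* relative to *Ctsd* in the same library, a log2 ratio on counts not scaled for length, was -4.10 ± 0.52 in control libraries and -7.10 ± 0.56 in mutant libraries (SD, n = 4 each). The 2 aspartic members therefore moved apart, with a difference of -3.01. This ratio holds the choice of *Ctse* and was not tested. The *Ctsd* value has a limit of its own: *Gm49369*, annotated on the same strand, overlaps 34.4% of its exon bases, and how reads in such overlaps were assigned is not given in the sources used here.

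Among the other 9 members, 2 were altered, that is changed by at least 1.5-fold with an unadjusted limma p under 0.05: *Ctss* rose and *Ctsc* fell. Over all genes 5.77% were altered, 2.12% higher and 3.65% lower. At an adjusted p under 0.05, 0 of the 9 members were called beside 0.947% of all genes, while an unadjusted p under 0.05 was reached by 2 of the 9 beside 8.38% of all genes. With limma library weights, which gave library 56 the lowest weight (0.349), *Ctss* (adjusted p = 0.00502) and *Ctsc* (adjusted p = 0.0497) passed the adjusted threshold beside 2.12% of all genes. Over the 17 alternatives *Ctss* passed it in 4 and *Ctsc* in 2. The values of the genotypes overlapped for all 9, and they were free of overlap for 5.27% of all genes. The median log2 fold change of the 9 was 0.13, and that of all genes was -0.01.

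**Figure D2:**
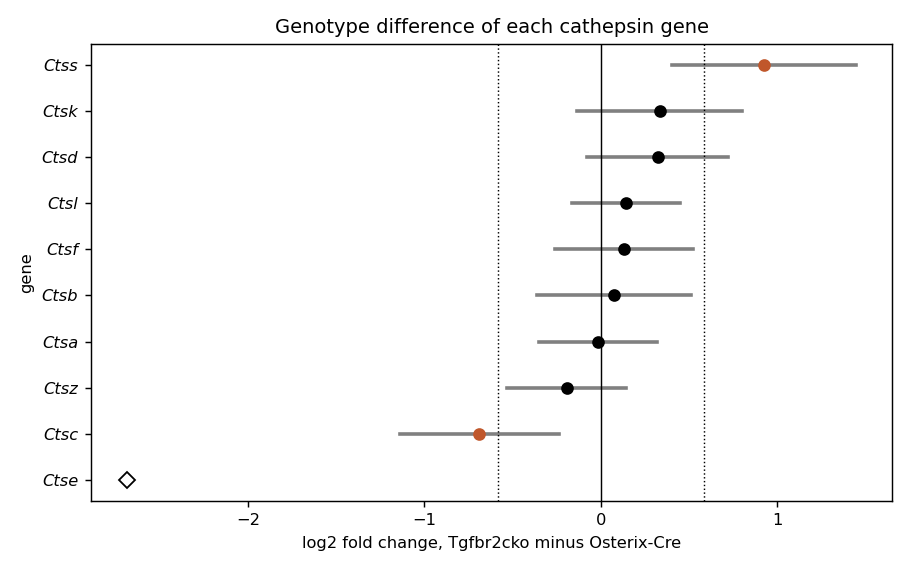
Difference in log2 CPM between Tgfbr2cko and Osterix-Cre for each cathepsin, with the 95% interval of the limma fit as a bar and dotted lines at 1.5-fold in each direction. *Ctss* (0.92) and *Ctsc* (-0.69), in orange, are past the lines with intervals that leave out 0, the intervals of the 7 members in black include 0, and *Ctse* (open diamond, -2.68) has no interval because it was chosen for its fall.

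*Ctss*, at chr3:95526786-95556403 on the plus strand, encodes cathepsin S, an elastin- and collagen-degrading cysteine protease of macrophages and other antigen-presenting cells that stays active at neutral pH. Its level was 6.83, 6.71, 6.64 and 6.19 in control libraries and 8.02, 7.70, 7.62 and 6.73 in mutant libraries. Libraries 53 to 55 lay above every control, whereas library 56 lay just above control library 50 and under control library 49.

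The means of *Ctss* were 6.59 ± 0.28 and 7.52 ± 0.55 (SD, n = 4 each), a rise of 0.92 ± 0.24 (SE, 95% interval 0.40 to 1.45) or 1.90-fold, with a limma p of 0.00214 (adjusted p = 0.118). The two-sided exact permutation test with 70 arrangements gave p = 0.0571, where the smallest p that 4 against 4 libraries allow is 0.0286. Without library 56 the rise was 1.19 (limma adjusted p = 0.00336).

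*Ctsc*, at chr7:88278085-88310888 on the plus strand, encodes cathepsin C or dipeptidyl peptidase I. Its level was 7.02, 7.42, 7.29 and 7.03 in control libraries and 7.07, 6.66, 6.28 and 6.01 in mutant libraries. Mutant libraries 54 to 56 were under every control, and library 53 was above control libraries 49 and 52.

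The means of *Ctsc* were 7.19 ± 0.20 and 6.50 ± 0.46 (SD, n = 4 each), a fall of -0.69 ± 0.21 (SE, 95% interval -1.14 to -0.24), with a limma p of 0.00573, an adjusted p of 0.200 and an exact permutation p of 0.0857. Without library 56 the difference was -0.52 (limma adjusted p = 0.303), short of 1.5-fold, so that *Ctsc* was no longer altered. In that fit 1 of the 9 members was altered, beside 5.3% of all genes.

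Both altered members are expressed by macrophages, and the macrophage markers gave a reading of that lineage in the same RNA. In bulk pulp, fewer cells of a type and less RNA per cell cannot be told apart. Of 13 macrophage markers, all in the table, *P2ry12* rose by 2.06 (limma adjusted p = 0.000373), *Mrc1* at -0.99 (adjusted p = 0.118) and *Cd68* at -0.70 (adjusted p = 0.564; -0.37 and not altered without library 56) were altered lower, and the other 10 were not altered. *Csf1r*, the receptor that macrophages need to survive and the marker with the highest mean CPM of the 13, was at -0.27 (adjusted p = 0.908). The summed CPM of the list was 1017 to 1474 in control libraries and 672 to 1359 in mutant libraries, or 1044 to 1359 without library 56. The list's median log2 fold change was -0.43, and 3 of its 13 genes were altered beside 5.77% of all genes.

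To set both genes against that scale, each library's mean log2 value of the 13 markers was subtracted, a comparison chosen after the values were seen. Both genes were taken because they were altered in these same libraries, so the permutation p-values on this scale only describe the separation. The share of all genes without overlap on this scale was not computed. *Ctss* lay above the marker mean by 0.86, 0.67, 0.45 and 0.50 in control libraries and by 1.78, 1.69, 1.84 and 1.58 in mutant libraries. The groups no longer overlapped, library 56 included: the means were 0.62 ± 0.19 and 1.72 ± 0.11 (SD, n = 4 each), a difference of 1.11, with an exact permutation p of 0.0286, the smallest the design allows.

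*Ctsc* lay above the marker mean by 1.05, 1.38, 1.10 and 1.34 in control libraries and by 0.83, 0.65, 0.50 and 0.86 in mutant libraries. The means were 1.22 ± 0.16 and 0.71 ± 0.17 (SD, n = 4 each), a difference of -0.51, with no overlap and an exact permutation p of 0.0286. That separation did not hold without *P2ry12*. Against the other 12 markers, *Ctsc* lay at 0.82, 1.15, 0.86 and 1.10 in control libraries and at 0.78, 0.58, 0.46 and 0.84 in mutant libraries, so that the groups overlapped, with a difference of -0.32 and an exact permutation p of 0.0571. *Ctss* stayed apart against the 12, with means of 0.38 ± 0.19 and 1.68 ± 0.11 and a difference of 1.29 (exact permutation p = 0.0286). The part of macrophage number or state in either difference was not tested.

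**Figure D3:**
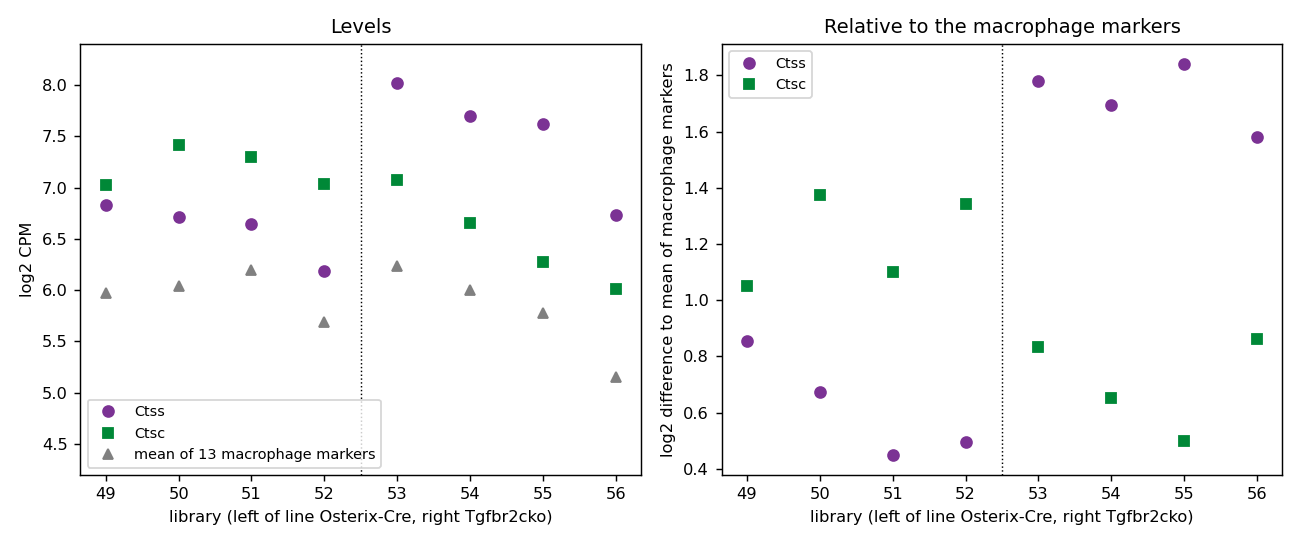
Left, log2 CPM of *Ctss*, *Ctsc* and the mean of 13 macrophage markers in each library. Right, *Ctss* and *Ctsc* after subtracting that mean, where the mutants run from 1.58 to 1.84 for *Ctss* (controls 0.45 to 0.86) and from 0.50 to 0.86 for *Ctsc* (controls 1.05 to 1.38). Without *P2ry12* among the markers the *Ctsc* groups overlap.

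The start regions of *Ctss* and *Ctsc*, the 2 members altered, are shown for what they share. The windows run from 250 bases before to 50 bases after the annotated start (RefSeq, GRCm38.p6), and the capitals mark the only match to GAGGAAGT, a core form of the site of PU.1, a transcription factor of macrophages and other myeloid cells; here it reads in the reverse orientation. Both strands were searched.
Ctss chr3:95526536-95526835 (+ strand): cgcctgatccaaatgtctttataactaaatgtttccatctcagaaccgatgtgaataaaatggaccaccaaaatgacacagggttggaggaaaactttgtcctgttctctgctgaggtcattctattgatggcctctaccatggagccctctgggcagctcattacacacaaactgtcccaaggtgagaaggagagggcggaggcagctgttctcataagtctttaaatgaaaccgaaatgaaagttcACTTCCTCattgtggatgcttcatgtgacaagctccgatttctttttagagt
Ctsc chr7:88277835-88278134 (+ strand): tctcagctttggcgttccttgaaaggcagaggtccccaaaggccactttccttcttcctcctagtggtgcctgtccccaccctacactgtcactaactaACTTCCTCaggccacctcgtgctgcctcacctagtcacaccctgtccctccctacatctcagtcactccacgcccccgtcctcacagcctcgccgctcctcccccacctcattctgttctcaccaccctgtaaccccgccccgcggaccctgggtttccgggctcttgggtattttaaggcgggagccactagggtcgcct

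Such windows were at hand for 8 of the 10 members, all but *Ctse* and *Ctsb*, with 2 starts for *Ctsa*. GAGGAAGT was found in 2 of the 8 members, *Ctss* and *Ctsc*, and in 3.20% of all 32851 windows. CACGTG, the E-box core that lysosomal regulators of the TFEB family bind, was found in 4 of the 8 members (*Ctsa*, *Ctsd*, *Ctsf* and *Ctsl*) and in 7.15% of all windows. The 4 members with an E-box were not altered.

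Of the SMAD-related words, the palindrome GTCTAGAC was found in 0 of the 8 members and in 0.213% of all windows, and CAGAC was found in 5 of the 8 (*Ctsa*, *Ctsf*, *Ctsk*, *Ctsl* and *Ctsz*) and in 49.6% of all windows. The AP-1 word TGANTCA was found in 0 of the 8 and in 7.81% of all windows. None of the 5 members with CAGAC was altered, and the 2 altered members had no match to it. These matches describe letters in the windows only.

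The serine member *Ctsa*, at chr2:164832873-164841032 on the plus strand, encodes cathepsin A or protective protein, a carboxypeptidase that also stabilizes lysosomal β-galactosidase and neuraminidase. It was at 8.55, 8.60, 8.73 and 8.78 in control libraries and at 8.64, 8.89, 8.70 and 8.36 in mutant libraries. The mutant values ran on both sides of the control values, and the difference was -0.02 ± 0.15 (SE, 95% interval -0.35 to 0.32, limma adjusted p = 0.998). The interval holds no change as large as 1.5-fold in either direction. *Pltp*, on the opposite strand, overlaps 10.5% of the *Ctsa* exon bases.

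*Ctsk*, at chr3:95499256-95509362 on the plus strand and next to *Ctss* on the chromosome, encodes the collagenase of osteoclasts and is also made by some fibroblasts. Its level was 7.59, 7.94, 7.81 and 8.06 in control libraries and 8.18, 8.65, 8.39 and 7.52 in mutant libraries. As for *Ctsd* and *Ctss*, libraries 53 to 55 were above every control, but library 56 was the lowest of all 8. The difference was 0.33 ± 0.22 (SE, 95% interval -0.13 to 0.80, limma adjusted p = 0.833). Without library 56 it was 0.56 (limma adjusted p = 0.152, unadjusted p = 0.00406), under 1.5-fold.

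Osteoclasts were checked by 11 markers, of which 6 were in the table. None of the 6 was altered, and their summed CPM was 131 to 154 in control libraries and 118 to 151 in mutant libraries. *Calcr*, *Oscar*, *Ocstamp*, *Dcstamp* and *Atp6v0d2*, which define the mature cell, were not among the genes analysed. *Tcirg1*, with the highest mean CPM of the 6, was at -0.21 (limma adjusted p = 0.887). The part of osteoclasts in the *Ctsk* level was not tested.

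*Ctsb*, at chr14:63122462-63145923 on the plus strand, is the broadly expressed cysteine cathepsin B and had the most reads of the group. It was at 10.26, 10.58, 10.48 and 10.68 in control libraries and at 10.72, 10.76, 10.63 and 10.18 in mutant libraries. The groups overlapped, with a difference of 0.07 ± 0.20 (SE, 95% interval -0.36 to 0.51, limma adjusted p = 0.998), an interval inside 1.5-fold on both sides. *Fdft1*, on the opposite strand, overlaps 12.8% of the *Ctsb* exon bases.

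*Ctsl*, at chr13:64359337-64370890 on the minus strand, encodes cathepsin L, another ubiquitous endopeptidase. It was the least variable member in control libraries, at 8.18, 8.27, 8.26 and 8.26, and was at 8.44, 8.62, 8.28 and 8.20 in mutant libraries. The difference was 0.14 ± 0.14 (SE, 95% interval -0.16 to 0.45, limma adjusted p = 0.958). An antisense gene, *Gm47123*, overlaps 26.8% of its exon bases. Of the 31-base words of its protein-coding transcripts, 7.89% occur in other genes, so part of its count is uncertain.

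*Ctsf*, at chr19:4855130-4860918 on the plus strand, encodes cathepsin F. Its level was 7.72, 8.10, 7.97 and 7.74 in control libraries and 8.0, 8.35, 8.15 and 7.54 in mutant libraries, a difference of 0.13 ± 0.18 (SE, 95% interval -0.26 to 0.52, limma adjusted p = 0.994). *Ctsz*, at chr2:174427493-174439039 on the minus strand, encodes the carboxypeptidase cathepsin Z (also called X). It was at 8.63, 8.77, 8.57 and 8.57 in control libraries and at 8.64, 8.64, 8.35 and 8.14 in mutant libraries, a difference of -0.19 ± 0.16 (SE, 95% interval -0.53 to 0.14, limma adjusted p = 0.908). Both intervals lie inside 1.5-fold.

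For each of the 10 members the lowest mutant value was that of library 56. It was also the library with the highest share of enamel matrix reads. Levels are scaled to all counted reads, so enamel matrix reads in the total lower the value of every other gene in that library. With them taken out of the total, the 10 members took 0.395% of the reads of library 56 instead of 0.319%, still the lowest mutant value. Any further part of those reads in the cathepsin levels was not tested beyond leaving the library out and fitting an enamel covariate. That covariate was the mean log2 level of *Amelx*, *Ambn* and *Enam*. With that covariate *Ctss* was at 1.13 (limma adjusted p = 0.0263), *Ctsc* at -0.47 (adjusted p = 0.249) and *Ctse* at -2.37.

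Levels of different members were compared per kb of annotated exon, as log2 CPM per kb. In the controls the order from the top was *Ctsz* (8.11 ± 0.10), *Ctsd* (8.06 ± 0.15), *Ctsb* (7.90 ± 0.18), *Ctsk* (7.25 ± 0.20), *Ctsa* (6.43 ± 0.11), *Ctss* (6.15 ± 0.28), *Ctsf* (5.55 ± 0.18), *Ctsl* (5.55 ± 0.04), *Ctsc* (4.65 ± 0.20) and *Ctse* (3.53 ± 0.57; SD, n = 4). *Ctsz* exceeded *Ctsd* in 2 of the 4 libraries, *Ctsa* exceeded *Ctss* in 3, and *Ctsf* exceeded *Ctsl* in 2, so these neighbours could not be ordered. All other neighbours kept their order in 4 of 4 libraries.

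In the mutants the order was *Ctsd* (8.38 ± 0.31), *Ctsb* (7.98 ± 0.27), *Ctsz* (7.91 ± 0.24), *Ctsk* (7.59 ± 0.49), *Ctss* (7.07 ± 0.55), *Ctsa* (6.41 ± 0.22), *Ctsl* (5.69 ± 0.19), *Ctsf* (5.68 ± 0.35), *Ctsc* (3.97 ± 0.46) and *Ctse* (0.84 ± 0.86; SD, n = 4). *Ctsb* exceeded *Ctsz* in 3 of 4 libraries and *Ctsl* exceeded *Ctsf* in 2, and the other neighbours kept their order in all 4. The order depended on the length used. With the exons of protein-coding transcripts alone, *Ctsf* shortens from 5041 to 1992 bases and its control level becomes 6.89 ± 0.18, above *Ctsa* (6.79 ± 0.11) in 3 of 4 libraries and with a higher mean than *Ctss* (6.15 ± 0.28), and *Ctsb* (8.25 ± 0.18) heads the controls. *Ctse* had the lowest mean of the 10 in both genotypes with either length, with all exons by 1.13 under *Ctsc* in control libraries and by 3.12 in mutant libraries.

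**Figure D4:**
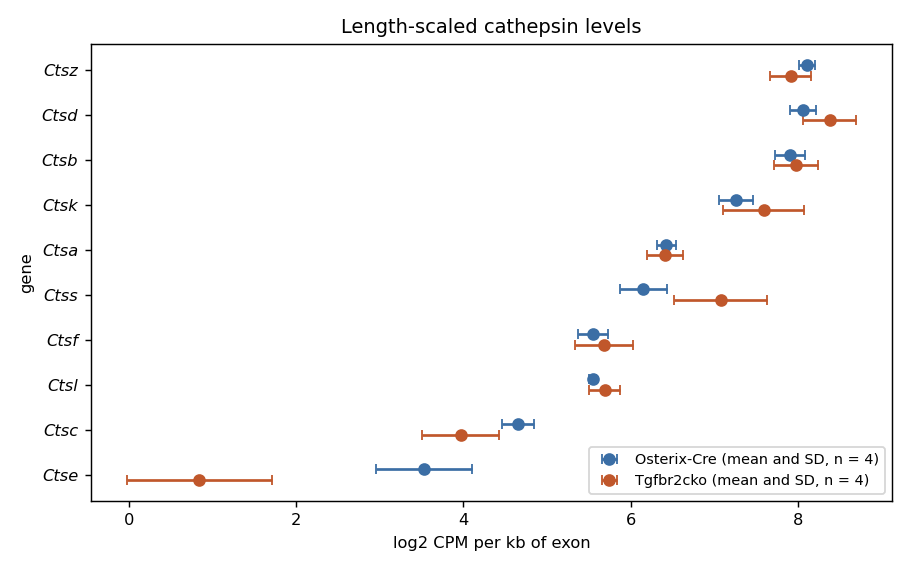
Mean level of each cathepsin per kb of exon (log2 CPM per kb) with SD over 4 libraries of each genotype, all annotated exons counted, ordered by the control mean. The range from top to bottom runs from 8.11 to 3.53 in Osterix-Cre and from 8.38 to 0.84 in Tgfbr2cko, with *Ctse* last in both.

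The 10 members together took 0.351%, 0.414%, 0.394% and 0.420% of the reads of the controls and 0.454%, 0.504%, 0.439% and 0.319% of those of the mutants. The means were 0.395% ± 0.0315 and 0.429% ± 0.0781 (SD, n = 4 each), and with enamel matrix reads taken out of the total they were 0.398% ± 0.0288 and 0.452% ± 0.0451. *Ctsb* made up 36.9% of the cathepsin reads in control libraries and 35.9% in mutant libraries, *Ctsd* 15.9% and 18.6%, and *Ctse* 0.994% and 0.145%. Shares of reads favour long transcripts.

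The genes with the profile most like that of *Ctse* were found by the smallest root mean square difference over the 8 libraries, each gene's own mean taken off. They were *Pirb*, an inhibitory immunoglobulin-like receptor of myeloid and B cells (0.475 log2 units), *Chp2* (0.480), *Ripor3* (0.504), *Chac1*, an enzyme of glutathione breakdown (0.527), and *St6galnac3*, a sialyltransferase (0.547). Their log2 fold changes were -2.57, -1.99, -2.13, -1.98 and -1.97. *Pirb* had 33 to 67 reads in control libraries and 7 to 10 in mutant libraries, so its profile rests on few reads. All 6 genes share the step between the genotypes for which *Ctse* was chosen, so the likeness is a description.

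The rest of the lysosomal and antigen-processing system was read from 7 lists that held 118 genes, of which 95 were in the table. Of these, 7 were altered (7.37%, beside 5.77% of all genes), with 1 higher and 6 lower. This count rested on single libraries, being 4 without library 56 (4.21%, beside 5.30% of all genes), 3 without library 55 (3.16%, beside 5.63%) and 4 without library 50 (4.21%, beside 5.14%), and it was 4 (4.21%, beside 5.22%) with the enamel covariate. The adjusted p was under 0.05 for 2 of the 95, *Cd74* and *Prcp*, and for 3 without library 56, when *Atp6v1d* joined them. The genotypes did not overlap for 7 of the 95 (beside 5.27% of all genes), 4 higher (*Cst3*, *Gnptab*, *Npc2*, *Zkscan3*) and 3 lower (*Atp6v1d*, *Cd74*, *Prcp*). The median log2 fold change was 0.02.

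Of the other cathepsin genes, *Ctsh*, *Ctso* and *Ctsw* were in the table and 0 of 3 were altered, with log2 fold changes of 0.48, 0.07 and -0.02. Without library 56 *Ctsh* was altered higher at 0.72 (limma adjusted p = 0.154). The inhibitors gave 0 altered of 5. *Cst3*, which encodes cystatin C, the main secreted inhibitor of cysteine cathepsins, was at 9.15 ± 0.23 and 9.61 ± 0.17 (SD, n = 4 each), a difference of 0.45 with a limma p of 0.0212 and an adjusted p of 0.396, under 1.5-fold. All mutant values of *Cst3* were above all control values.

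Sorting and activation factors gave 0 altered of 17, and *Lgmn*, the asparaginyl protease that matures several cathepsins, was at 0.31 (limma adjusted p = 0.872). *Gnptab*, a subunit of the enzyme that makes the mannose 6-phosphate sorting tag, was at 0.37 (limma adjusted p = 0.551) with all mutant values above all control values. The regulators of lysosomal genes gave 0 of 9, with *Tfeb* at 0.03, *Tfe3* at -0.13 and *Mitf* at 0.07. *Zkscan3*, a repressor of autophagy and lysosome genes, was at 0.31 (limma adjusted p = 0.559), also with all mutant values above all control values. The 24 genes of the lysosomal membrane and proton pump gave 1, *Atp6v1d*, a subunit of the vacuolar ATPase, at -0.62 (limma adjusted p = 0.0623, and 0.0457 without library 56).

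Of 31 other lysosomal hydrolases, 2 were altered, both lower, beside 3.65% of all genes altered lower. *Prcp*, a lysosomal carboxypeptidase, fell from 7.06 ± 0.19 to 5.29 ± 0.42 (log2 fold change -1.77, limma adjusted p = 0.000737), and *Glb1*, the β-galactosidase that cathepsin A protects, was altered lower at -0.61 (adjusted p = 0.169) and, at -0.54 without library 56, was no longer altered. For *Prcp* the genotypes did not overlap.

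The MHC class II list, whose invariant chain is the substrate of cathepsin S, had 6 of 11 genes in the table. Of these 6, 4 were altered, beside 5.77% of all genes. *Cd74*, the invariant chain itself, was at 5.75, 5.40, 4.59 and 4.42 in control libraries and at 3.05, 2.62, 2.26 and 3.40 in mutant libraries. The groups did not overlap, and *Cd74* fell by 2.21 on the log2 scale (SE 0.32, limma adjusted p = 0.00444), in the opposite direction to *Ctss*. The class II chains *H2-Ab1* and *H2-Eb1* were both at -0.90 (adjusted p = 0.408 and 0.423), and *H2-DMb2* was at 1.66 (adjusted p = 0.520) on 3 to 53 reads. Without library 56 these 3 were at -0.74, -0.76 and 1.63 and none was altered (limma adjusted p = 0.556 for each). The list's median was -0.64. Of 7 dendritic cell markers 0 were in the table, so that lineage was not read here.

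**Figure D5:**
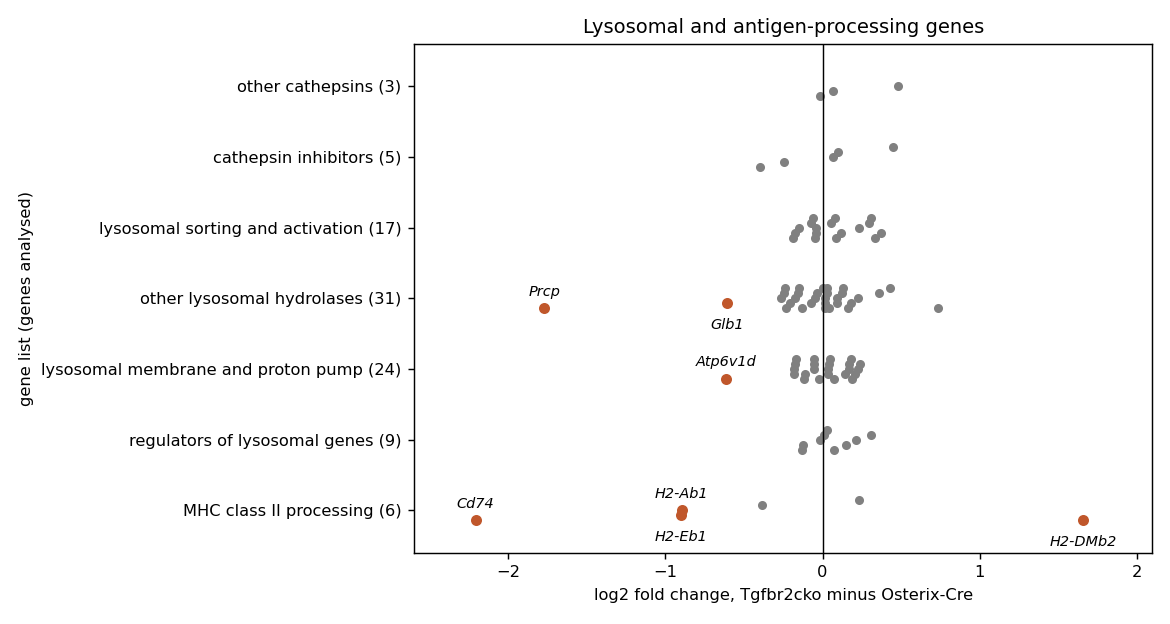
Log2 fold change of each gene of 7 lysosomal and antigen-processing lists, 1 point per gene, with altered genes in orange and named. Most of the 95 points lie near 0 (median 0.02), and the farthest are *Cd74* (-2.21), *Prcp* (-1.77) and *H2-DMb2* (1.66).

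Markers of other cells in the pulp were read in the same fit, in which 5.77% of all genes were altered (5.3% without library 56). Of 11 enamel organ markers, *Cdh1* was altered higher at 1.15 (limma adjusted p = 0.527), though at 0.55 without library 56 it was not altered, and *Klk4* lower, while *Mmp20* was altered lower only without it (-0.38 with, -0.68 without, limma adjusted p = 0.506). The list had a summed CPM of 4193 to 23641 in control libraries and 4462 to 195952 in mutant libraries, or 4462 to 30346 without library 56. Erythroid markers, 5 of 11 in the table, were not altered, with a summed CPM of 655 to 1496 and of 565 to 2541, or 565 to 694 without library 56, when *Hba-a2* was altered lower at -0.98 (limma adjusted p = 0.408). Of 8 neutrophil markers only *S100a8* was in the table, at -1.75 (limma adjusted p = 0.460) on 3 to 77 reads (-2.53 without library 56, adjusted p = 0.0362), and *Elane*, *Mpo* and *Ly6g* were not among the genes analysed. Pericyte markers gave 2 of 5 altered, both lower (*Rgs5* at -0.83, adjusted p = 0.0212, and *Pdgfrb* at -0.69, adjusted p = 0.282, or -0.48 and not altered without library 56), and *Acta2* was altered lower without library 56 (-0.54 with, -1.25 without, limma adjusted p = 0.0540). Endothelial markers gave 1 of 7, *Tek* at -0.64 (adjusted p = 0.124), Schwann cell markers 0 of 3, and odontoblast markers 3 of 7, *Ibsp* higher at 1.24 (adjusted p = 0.230, and 0.77 without library 56), *Nes* lower at -0.81 (adjusted p = 0.235) and *Bglap* lower at -0.72 (adjusted p = 0.408, and -0.56 and not altered without library 56). Their part in the cathepsin results was not tested.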

How the data were processed

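Each library is RNA from P7 first molar pulp, grouped by the genotype label. According to the submitters' processing notes, reads were trimmed with fastp 0.21.0, aligned with HISAT2 2.1.0 to GRCm38.p5 and counted with featureCounts (Subread 2.0.1). The methods text writes the genome as GRCh38 with the mouse annotation GENCODE M14. Whether the counting used strand is not given in the sources used here. The authors kept reliably quantifiable genes and deposited log2 CPM from voom, that is the count with 0.5 added, as a log2 value relative to the sum of counted reads. Whole reads were recovered from 100.0% of these values, to within 0.0001 of a read.

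The deposited log2 values of all 12148 genes and 8 libraries were fitted in 1 model with limma 3.58.1 (R 4.3.3), two-sided, with an intensity trend and Benjamini-Hochberg adjustment over all genes. Altered means at least 1.5-fold at an unadjusted p under 0.05. Single values were compared by the two-sided exact permutation test over 70 arrangements. The fit was tested on simulated data. Symbols, positions and exon lengths came from GENCODE M21 (GRCm38), with 12144 identifiers matched. Figures were drawn with matplotlib 3.10.9 in Python 3.11.15.

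The members, the gene lists and the tests were chosen with earlier results of these data known. Genes named are the members, *Tgfbr2*, per list the altered genes with the largest rise and fall, the marker with the highest mean and the defining markers not in the table, and the 5 genes most like *Ctse*. Others (*Cib3*, *Ctsh*, *Ctso*, *Ctsw*, *Cst3*, *Lgmn*, *Tfeb*, *Tfe3*, *Mitf*, *Glb1*, *H2-Ab1*, *H2-Eb1*, *Cd68*, *Bglap*, *Gnptab*, *Npc2*, *Zkscan3*, *Mmp20*, *Hba-a2*, *Acta2*) were named after their values were seen. Of the genes in the lists, 2 are not reported here and were left out of the list counts but not out of the model. Alternatives were no trend, library weights, voom weights, quantile normalization, median centring, an offset of 2 reads and a mean log2 of at least 3. Further ones were averaging libraries of the same title number, the mean log2 level of *Amelx*, *Ambn* and *Enam* as a covariate, and leaving out each library. The macrophage mean without *P2ry12*, the levels per kb of protein-coding transcripts and the list genes without library 56 were added after the values were seen. The reads carry no molecular identifiers and may be copies, so depth limits cover counting error only.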

Additional observations from a re-analysis of the deposited data

Results flagged for a closer look

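In groups of 4 libraries, 76 sets of values (the members, 27 other genes named by rule, and the cathepsin share of reads, in each genotype) were screened for a highest or lowest library far from the rest, and 3 stood out. Chance alone gives about 1 in 20. *Atp6v1d* was at 7.29 in control library 50, the lowest, with the other controls at 7.52 to 7.57. The erythroid gene *Hba-a1* was at 9.89 in mutant library 56, the highest, with the other mutants at 7.97 to 8.26. *Tek* was at 5.41 in control library 50, the highest, with the other controls at 4.89 to 4.96. No cathepsin member was among the 3.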

How the results depend on the processing

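Genes altered numbered 701, 625 to 947 when each library was left out in turn, 256 at 2-fold or more and 115 by adjusted p (258 with library weights, 65 without Osterix-Cre 51). Of the 9 cathepsins tested, 2 were altered, 1 with the enamel covariate, 1 to 2 with a library left out (1 without Tgfbr2cko 56), 0 at 2-fold and 0 by adjusted p. For the 7 lysosomal lists the counts were 7, 4 with the enamel covariate, 3 to 9 with a library left out (4 without Osterix-Cre 50, 3 without Tgfbr2cko 55, 4 without Tgfbr2cko 56), 3 at 2-fold and 2 by adjusted p. The alternatives for the list count, and the macrophage scale, were added after seeing the data. *Ctss* had an unadjusted limma p under 0.05 in all 17 alternatives (log2 fold change 0.76 to 1.19, adjusted p 0.00336 to 0.325, under 0.05 in 4), and so did *Ctsc* (-0.88 to -0.47, adjusted p 0.0302 to 0.489, under 0.05 in 2). *Ctsd* and *Ctsk* each had one in 3 of the 17: library weights, the enamel covariate and without Tgfbr2cko 56. *Ctse* ranged from -2.93 to -2.27. *Ctsa* reversed to 0.048 with library weights, 0.012 after quantile normalization, 0.080 with the enamel covariate, and ran from -0.098 to 0.079 with a library left out (0.0058 without Osterix-Cre 51, 0.021 without Osterix-Cre 52, 0.079 without Tgfbr2cko 56), and *Ctsb* reversed to -0.0067 without Osterix-Cre 49, with 0.20 the highest with a library left out and 0.22 with the enamel covariate. The cause was not tested. The median of all genes moved to 0.07 with the enamel covariate and without Tgfbr2cko 56. The genotypes share only title number 2, and no paired or blocked analysis was run. At these depths *Ctse* in library 56 rests on 32 reads.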
